A study of Homo sapiens with 8 samples.

Results

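The nuclear genes of oxidative phosphorylation were followed in the MDA-MB-231 line, human breast cancer cells of the triple-negative class, during treatment with the compound EMD37. Members were the genes whose symbols mark them as subunits of the 5 complexes. These are NDUFA, NDUFB, NDUFC, NDUFS or NDUFV with digits for complex I, SDHA to SDHD for complex II, and symbols starting UQCR for complex III. Complex IV took COX4 to COX8 with a suffix, and ATP synthase took symbols starting ATP5F1, ATP5M or ATP5P. The rule found 86 genes of the 43627 in the deposited tables, of which 37 belong to complex I, 4 to complex II, 9 to complex III, 17 to complex IV and 19 to ATP synthase, and it left out 95 pseudogenes. NDUFA4 falls under complex I by its symbol, although its protein is now regarded as a complex IV subunit. Symbols are those of GENCODE 29, in which ATP5MD and ATP5MPL are the present ATP5MK and ATP5MJ.

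The groups were cells given 0.5 µM EMD37 for 12 h, the DMSO vehicle for 12 h, the same dose of EMD37 for 24 h, and vehicle for 24 h. Each group had 2 RNA-seq libraries, marked A and B. The labels did not say whether these came from separate cultures, and p-values therefore reflect only how much these libraries vary, which may be technical. All cells were of 1 cancer line grown in culture, and what EMD37 is was not described in the sources used here.

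Oxidative phosphorylation is carried out by protein complexes in the inner mitochondrial membrane. Complex I takes electrons from NADH and complex II takes them from succinate, and both pass them through ubiquinone to complex III and on, through cytochrome c, to complex IV, which reduces oxygen. Proton pumping by complexes I, III and IV drives ATP synthase. Most subunits are encoded in the nucleus and imported, and a few core subunits are encoded in mitochondrial DNA. Many of the nuclear genes are transcribed with help from NRF1, from ETS factors such as GABPA, from YY1 and from the coactivator PGC-1α, encoded by PPARGC1A.

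Libraries held 8994977 to 11437813 reads in the count table. Marker genes were read against the label of the cells, and KRT18 and EGFR, which were part of this check, are not given here. VIM and CD44, which mark mesenchymal-like breast cancer cells, had 9110 or more normalized counts in every library, while the epithelial genes CDH1 and EPCAM had at most 2.85. ESR1 and PGR, the hormone receptors whose absence is part of the label, had 4.74 to 40.5 normalized counts, so their transcripts were low and not absent. PTPRC of leukocytes and DCN of fibroblasts had at most 8.54, COL1A1 at most 16.7, and PECAM1 of endothelium 20.3 to 47.1. EMD37 libraries carried the endoplasmic reticulum stress response named in the study's title. HSPA5, which encodes the chaperone BiP, was higher by 3.42 (log2) at 12 h and 2.81 at 24 h. Normalized counts are the authors' values, the reads of a library divided by 1 size factor.

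Of the 86 members, 77 had enough reads in the count table to be tested. Genes were called where edgeR's quasi-likelihood test gave an adjusted p below 0.05, with Benjamini-Hochberg adjustment over all 14850 genes tested. NDUFA7, a complex I accessory subunit with 11.1 to 18.8 normalized counts, was tested only after reads were recovered from the normalized table. It was at -0.19 (log2) at both times and was not called. The remaining 8 were below the filter, and most are isoforms that other tissues use. COX6A2, of heart and skeletal muscle, and COX8C, of testis, had 0 reads in every library, which allows a level of up to 0.237 to 0.298 CPM, counts scaled to library size (3 reads per library, counting error only). COX4I2, an isoform of lung, reached 1.07 normalized counts, COX7B2, of testis, reached 0.867, and COX7A1, of muscle, reached 6.07. COX6B2, of testis, had 7.49 and 9.07 normalized counts in EMD37 libraries at 24 h, against 0.949 and 4.30 in vehicle libraries, too few for a test. ATP5MGL, a copy of the subunit g gene, reached 9.39. ATP5MF-PTCD1, a readthrough transcript with 93.8% of its exon bases shared with other genes, reached 3.13.

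The 13 subunit genes of mitochondrial DNA had 0 reads in all 8 libraries. The balance between nuclear and mitochondrial subunit transcripts was therefore not analysed here. The members together made up 0.408% and 0.436% of reads in EMD37 libraries at 24 h, against 0.553% and 0.479% in vehicle libraries. At 12 h they made up 0.437% and 0.441% with EMD37, against 0.492% and 0.471% with vehicle. The EMD37 libraries lay below the vehicle libraries at both times on this scale. On the authors' size-factor scale the sums at 24 h overlapped, at 47356 and 53218 normalized counts with EMD37 against 60389 and 51797 with vehicle. At 12 h the sums were 48276 and 50762 with EMD37, against 55543 and 51661 with vehicle, and did not overlap. These are bulk samples of 1 cell line, and both scales are relative to the other reads of a library. The number of cells and the amount of RNA per cell were therefore not measured.

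Levels between genes were compared per kilobase of merged exon length, as means over the 8 libraries. COX8A, a small complex IV subunit, was the highest tested member at 3281 normalized counts per kb. ATP5F1B, the catalytic beta subunit of ATP synthase, followed at 1320. UQCRFS1, the Rieske iron-sulfur protein of complex III, stood at 794, ATP5PB, of the peripheral stalk, at 785, and NDUFS5 of complex I at 736. The medians per complex were 124 for complex I, 44.2 for complex II, 279 for complex III, 210 for complex IV and 204 for ATP synthase. Some members that form part of every assembled complex had few reads. SDHB, the iron-sulfur subunit of complex II, had 6.39 per kb and SDHD, its membrane anchor, 651. COX7B had 10.8 per kb, COX6B1 12.3 and ATP5ME 12.5. Of the 77 tested members, 12 averaged under 100 normalized counts, and their folds are the least precise. COX6B1 has 7 named pseudogenes and ATP5ME shares 61.6% of its exon bases with other genes; SDHB has no named pseudogene and shares 0% of its exon bases. The part that read assignment plays was not tested.

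**Figure D1:**
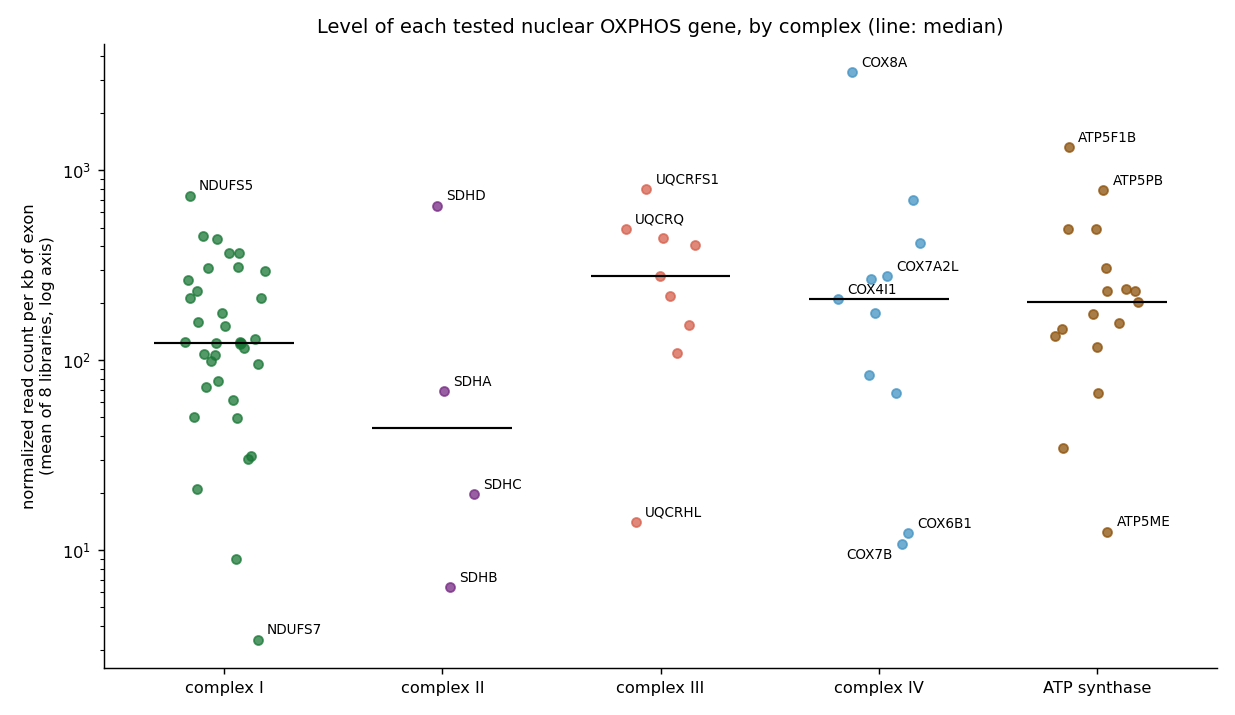
Mean level of each of the 77 tested members over the 8 libraries, in normalized read counts per kb of exon on a log axis, grouped by complex, with 1 point per gene and the median as a line. Complex II spans 6.39 (SDHB) to 651 (SDHD), and COX8A, at 3281, is the highest point.

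At 24 h members of every complex were called lower with EMD37, and the largest falls were in complex I, complex II and ATP synthase. In complexes I and IV the share called lower was near that of all tested genes. Among the 77 tested, 23 fell and 3 rose. The background at 24 h was wide, since 40.7% of all tested genes were called, 21.1% lower and 19.6% higher. Members were called lower in 29.9% of cases and higher in 3.90%. The falls ran from -0.20 to -0.73 (log2) with a median of -0.40. Over all 77 members the median log2 fold change was -0.15, with 54 below 0, and over all 14850 genes it was -0.03. Both EMD37 libraries lay below both vehicle libraries for 30 of the 77 members and above them for 8, where 33.3% and 32.4% of all tested genes did so. These shares and medians describe the members and are no test of them as a set.

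**Figure D2:**
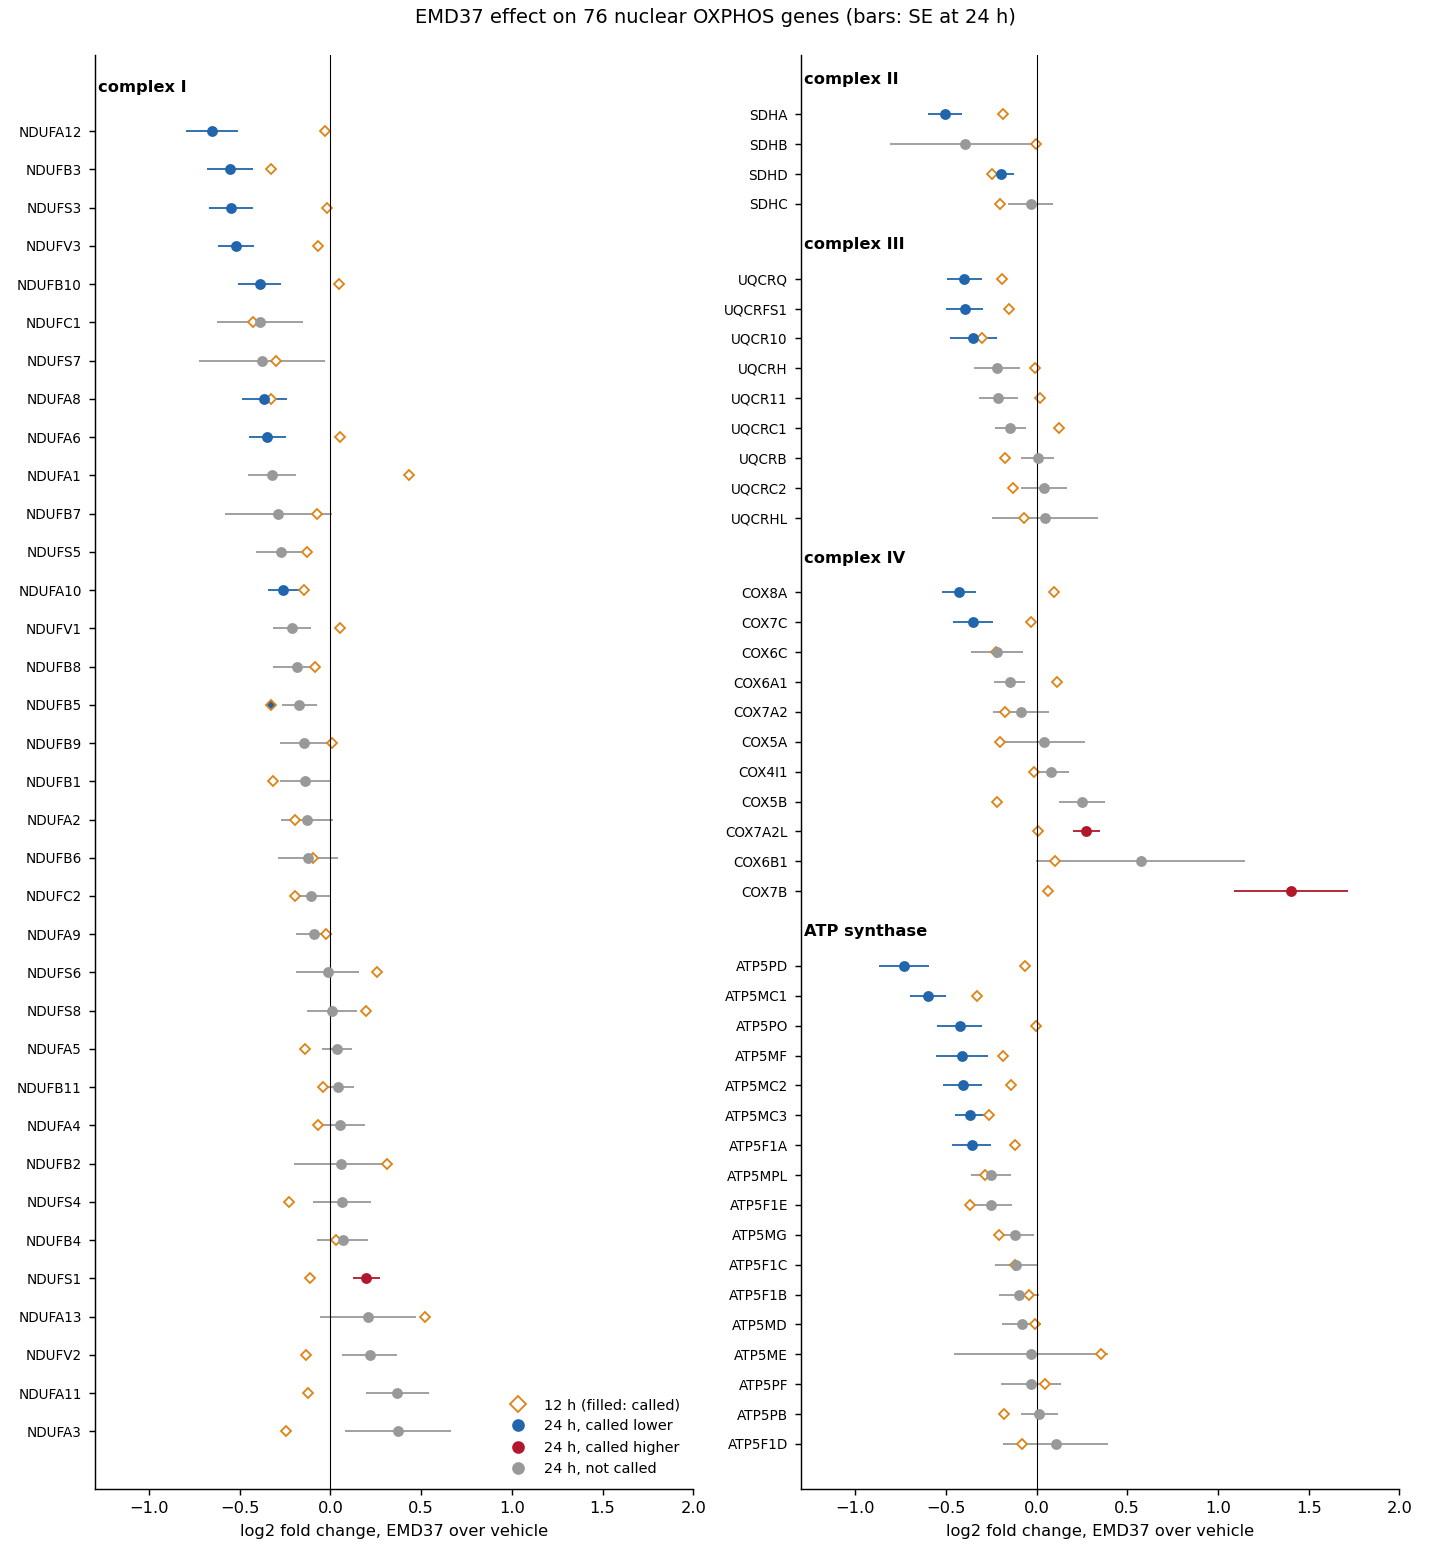
Log2 fold change of EMD37 over vehicle for 76 of the 77 tested members, by complex and sorted by the 24 h value. Circles with standard errors show 24 h and diamonds 12 h. In the panels, 22 circles are marked lower and 3 higher (NDUFS1, COX7A2L and COX7B), and NDUFB5 is the diamond that was called at 12 h.

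In complex I, 9 of 36 tested members fell and 1 rose, with a median of -0.14. NDUFV3 (chromosome 21, 42879644 to 42913304, GRCh38), a small subunit of the NADH-oxidizing module, had 590 and 656 normalized counts in EMD37 libraries at 24 h, against 896 and 864 in vehicle libraries. Its log2 fold change was -0.52 (standard error 0.10, adjusted p = 0.000472). NDUFS3 (chromosome 11, 47565336 to 47584562), a core subunit of the arm that leads electrons to ubiquinone, had 356 and 395 with EMD37, against 603 and 478 with vehicle, a change of -0.55 (standard error 0.12, adjusted p = 0.00163). In both genes the groups did not overlap, and vehicle library A was the highest. NDUFA12 (chromosome 12, 94897055 to 95003770), an accessory subunit, had 370 and 391 with EMD37, against 708 and 469 with vehicle, a change of -0.65 (standard error 0.14, adjusted p = 0.00147). NDUFB3, an accessory subunit of the membrane arm, had 253 and 305 with EMD37, against 421 and 386 with vehicle, a change of -0.55 (standard error 0.13, adjusted p = 0.00226). The spread between the vehicle libraries of NDUFA12 was wider than that of NDUFB3. NDUFB10 fell by 0.39, NDUFA8 by 0.36, NDUFA6 by 0.35 and NDUFA10 by 0.26 on the log2 scale, all accessory subunits. The call of NDUFA10 was lost in 11 of 14 alternatives.

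NDUFS1, the largest complex I subunit and a carrier of iron-sulfur clusters, was called in the other direction. It had 2765 and 3090 normalized counts with EMD37 at 24 h, against 2554 and 2465 with vehicle, a rise of 0.20 (standard error 0.08, adjusted p = 0.0470). This call was lost in 10 of 14 alternatives, at adjusted p of 0.0522 to 0.292, among them the replicate block and the omission of either vehicle library of 24 h. NDUFV1 and NDUFV2, which with NDUFS1 make up the electron input module, were at -0.21 and 0.22 and were not called. NDUFA3 and NDUFA11 had the highest estimates of the complex, 0.37 each, and did not pass the test.

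In complex II, SDHA fell in every alternative, SDHD was called lower in the fit given here but in few others, and SDHB and SDHC were not called, with a median of -0.30 over the 4 genes. SDHA (chromosome 5, 218241 to 256700), the flavoprotein that oxidizes succinate, had 444 and 468 normalized counts with EMD37 at 24 h, against 646 and 628 with vehicle. Its change was -0.51 (standard error 0.09, adjusted p = 0.000389), and its libraries agreed closely within each group. SDHD (chromosome 11, 112086773 to 112120013) had 1621 and 1806 with EMD37, against 2021 and 1846 with vehicle, a change of -0.20 (standard error 0.08, adjusted p = 0.0482). That call was lost in 12 of 14 alternatives, at adjusted p of 0.0612 to 0.389. SDHC, the other membrane anchor, was at -0.03, with 296 and 277 with EMD37 against 295 and 282 with vehicle. SDHB was at -0.39 with a standard error of 0.42, from 10.7 and 14.1 with EMD37 against 17.1 and 15.0 with vehicle, so a change of the size seen in SDHA was not detectable at this depth.

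In complex III, 3 of 9 members fell (33.3%, against 21.1% of all tested genes) and none rose, with a median of -0.21. The same test at an unadjusted p below 0.05 also gave 3 of 9 members, a smaller share than that of all tested genes (7182 of 14850). UQCRFS1 (chromosome 19, 29205321 to 29213541) had 2205 and 2550 normalized counts with EMD37 at 24 h, against 3328 and 2826 with vehicle, a change of -0.40 (standard error 0.10, adjusted p = 0.00501). UQCRQ (chromosome 5, 132866560 to 132868031), a small subunit next to cytochrome b, had 615 and 668 with EMD37, against 912 and 750 with vehicle, a change of -0.40 (standard error 0.09, adjusted p = 0.00307). UQCR10, another small subunit, had 298 and 417 with EMD37, against 469 and 427 with vehicle, a change of -0.35 (standard error 0.13, adjusted p = 0.0435), with EMD37 library B close to the vehicle values, and the call was lost in 11 of 14 alternatives. The core proteins UQCRC1 and UQCRC2 were at -0.14 and 0.04 and were not called.

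Complex IV had a median of 0.04, with 2 of 11 tested members lower and 2 higher. Each is a share of 18.2%, where 21.1% of all tested genes were called lower and 19.6% higher. COX8A (chromosome 11, 63974607 to 63976543) had 1487 and 1383 normalized counts with EMD37 at 24 h, against 2070 and 1730 with vehicle. Its change was -0.43 (standard error 0.09, adjusted p = 0.00157). COX7C, a small subunit, had 474 and 481 with EMD37, against 654 and 543 with vehicle, a change of -0.35 (standard error 0.11, adjusted p = 0.0168). Both fell without overlap between the groups. COX7B (chromosome X, 77899438 to 77907373), also a small subunit, had 44.9 and 53.4 with EMD37, against 13.3 and 23.6 with vehicle. Its rise of 1.40 (standard error 0.31, adjusted p = 0.00190) was the largest change of any tested member in either direction, and it rests on few reads, since COX7B was the only called member that averaged under 100. At 12 h COX7B had 35.2 and 28.4 with EMD37, against 32.3 and 29.5 with vehicle, so the vehicle libraries at 24 h were the lowest of the 8. COX7A2L (chromosome 2, 42333546 to 42425088), which joins complexes III and IV in supercomplexes, had 1695 and 1807 with EMD37, against 1493 and 1353 with vehicle, a rise of 0.28 (standard error 0.08, adjusted p = 0.00807).

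In ATP synthase, 7 of 17 tested members fell (41.2%, against 21.1% of all tested genes) and none rose. The median was -0.25, with 15 of 17 below 0. At an unadjusted p below 0.05 there were 9 of 17, near the share of all tested genes (7182 of 14850). ATP5PD (chromosome 17, 75038863 to 75046985), subunit d of the peripheral stalk, had 511 and 590 normalized counts with EMD37 at 24 h, against 1081 and 715 with vehicle, and its change of -0.73 (standard error 0.14, adjusted p = 0.000473) was the largest fall of any tested member. ATP5MC1, ATP5MC2 and ATP5MC3 encode the same mature c subunit, the proton-carrying ring, and all 3 fell. ATP5MC1 (chromosome 17, 48892765 to 48895871) had 503 and 531 with EMD37, against 851 and 690 with vehicle, a change of -0.60 (standard error 0.10, adjusted p = 0.000144). ATP5MC2 had 491 and 552 with EMD37, against 761 and 598 with vehicle, a change of -0.41 (standard error 0.11, adjusted p = 0.00648). ATP5MC3 had 992 and 1061 with EMD37, against 1411 and 1196 with vehicle, a change of -0.37 (standard error 0.08, adjusted p = 0.00209). In each of the 3, both EMD37 libraries were below both vehicle libraries. ATP5PO, the stalk subunit that confers oligomycin sensitivity, fell by 0.42 on the log2 scale, ATP5MF, subunit f in the membrane, by 0.41, and ATP5F1A, the alpha subunit of the catalytic head, by 0.36. The catalytic beta subunit gene ATP5F1B had 2598 and 3490 with EMD37, against 3535 and 2853 with vehicle. Its groups overlapped and its change of -0.09 was not called.

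**Figure D3:**
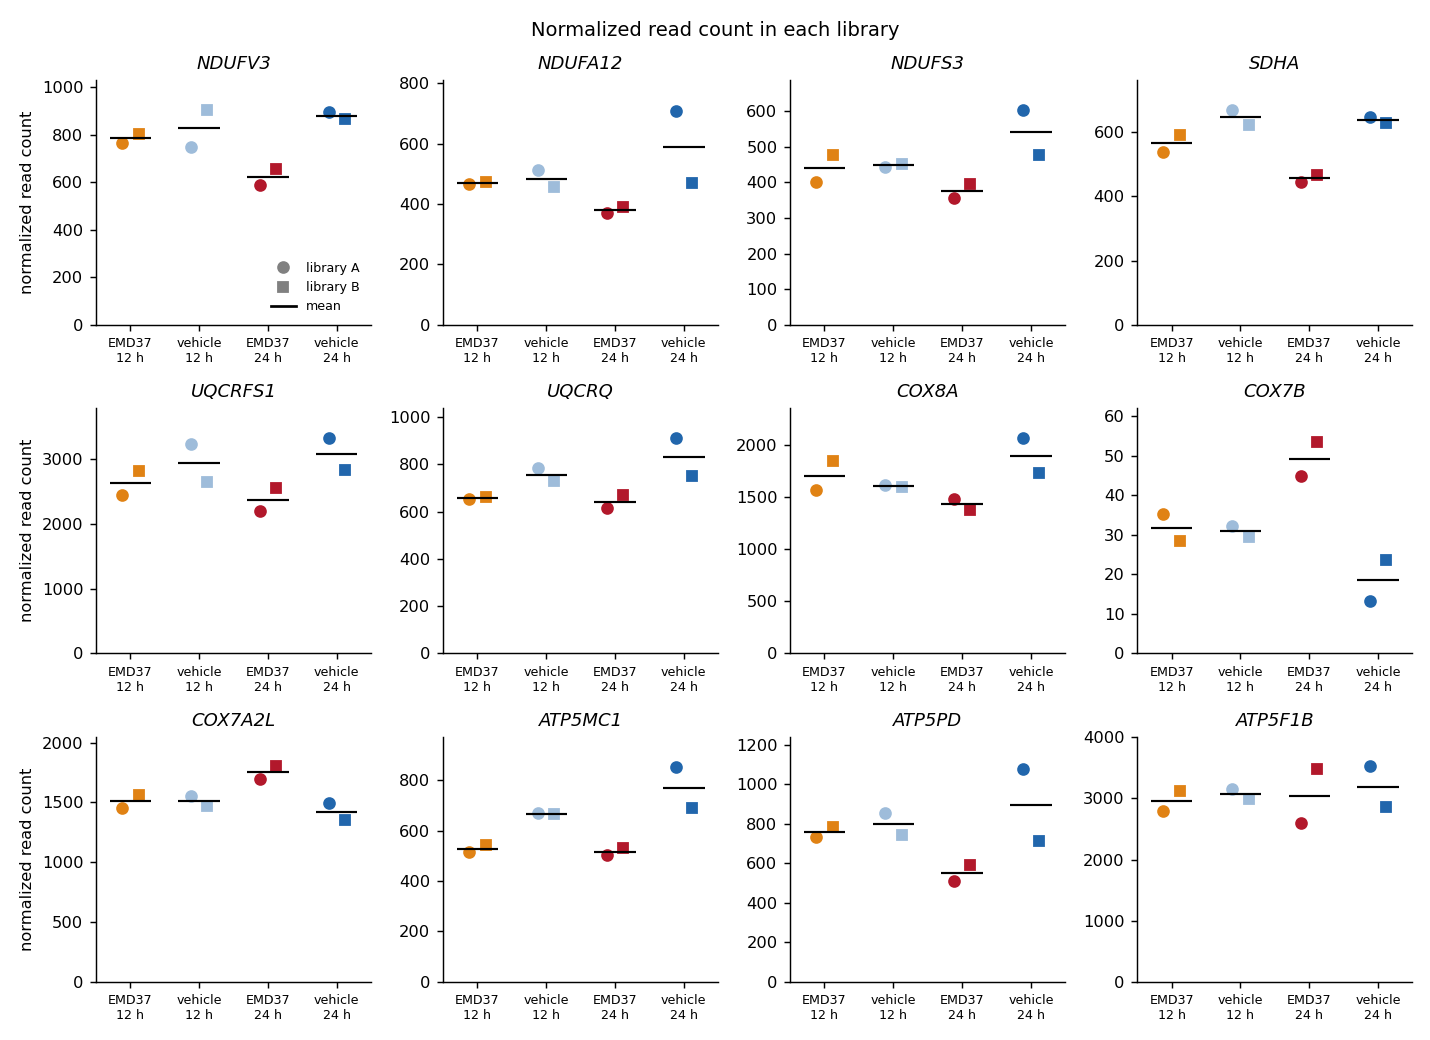
Normalized read counts of 12 members in each library, for EMD37 and vehicle at 12 h and at 24 h, with library A as a circle, B as a square and the group mean as a line; each axis starts at 0. At 24 h the EMD37 points lie below the vehicle points in NDUFV3, NDUFA12, NDUFS3, SDHA, UQCRFS1, UQCRQ, COX8A, ATP5MC1 and ATP5PD and above them in COX7B and COX7A2L, and they overlap in ATP5F1B.

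At 24 h, library A of the vehicle group stood above library B for 62 of the 77 members, with a median ratio of 1.15, while 54.4% of all tested genes were higher in A. Among EMD37 libraries at 24 h, A was above B for 14 of 77, with a median ratio of 0.911, against 39.8% of all genes. The share of members called lower moved with these libraries. Without library A of vehicle or of EMD37 at 24 h, it was below that of all tested genes in the same fit. Without library B of either group, it was above that of all tested genes. Each of these fits leaves 1 library in a group. Over 14 alternative settings, 8 of the 26 calls held in every one. These were the falls of NDUFA12, NDUFS3, NDUFV3, SDHA, COX8A, ATP5MC1 and ATP5PD and the rise of COX7B. Why the libraries of a group differed in these genes was not tested.

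**Figure D4:**
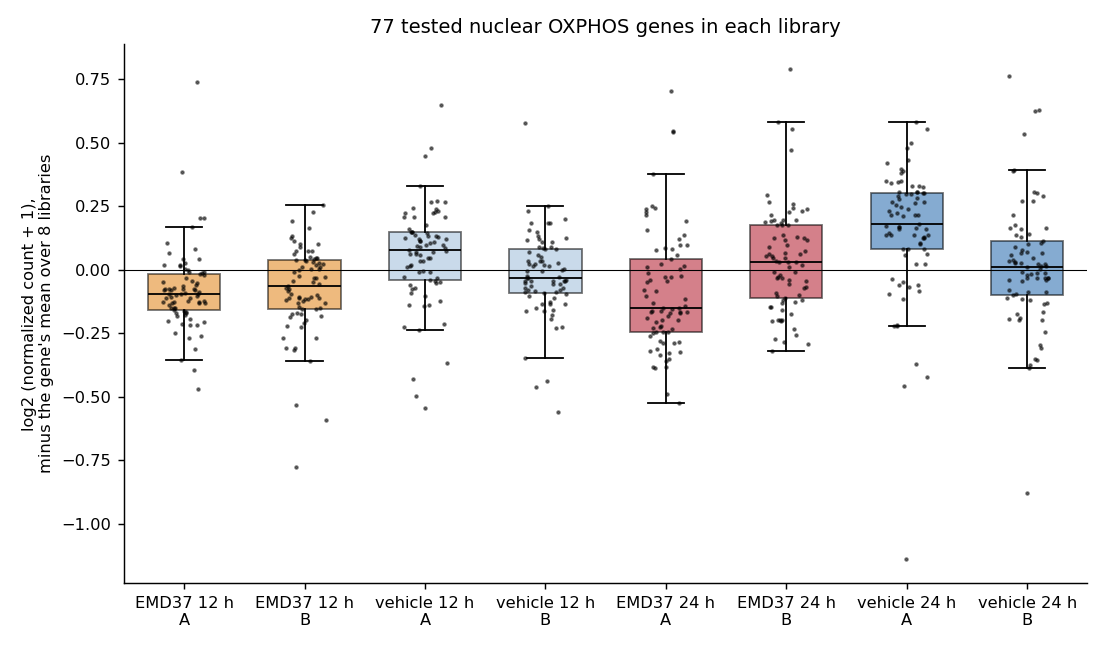
Each of the 77 tested members as a point in each of the 8 libraries, given as log2 (normalized count + 1) minus the gene's mean over the libraries; boxes show the quartiles and median. At 24 h, vehicle library A has the highest box and EMD37 library A the lowest median, and the B libraries of both groups lie near 0.

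At 12 h the members differed little. NDUFB5, an accessory subunit of the membrane arm of complex I (chromosome 3, 179604690 to 179627647), had 588 and 533 normalized counts with EMD37, against 749 and 672 with vehicle. Its change of -0.33 (standard error 0.09, adjusted p = 0.0410) was the only call among the 77 members. Of all tested genes 8.70% were called, 5.27% higher and 3.43% lower. The median log2 fold change of the members was -0.10, with 58 of 77 below 0, against -0.01 over all genes. In the same test 11 of the 77 members had an unadjusted p below 0.05, a smaller share than the 3297 of all 14850 tested genes. Both EMD37 libraries lay below both vehicle libraries for 31 members and above them for 7, where 29.7% and 25.2% of all tested genes did so. The medians were -0.08 for complex I, -0.19 for complex II, -0.13 for complex III, -0.02 for complex IV and -0.12 for ATP synthase. Of the 23 members that fell at 24 h, 20 were also below 0 at 12 h. Libraries of a group differed at 12 h too. Vehicle library A was above B for 56 of the 77 members (median ratio 1.07), against 53.1% of all tested genes. EMD37 library A was above B for 27 (median ratio 0.978), against 44.6%. ATP5MC1 had 514 and 541 with EMD37 at 12 h, against 670 and 664 with vehicle, with a change of -0.33 (adjusted p = 0.0519). The call of NDUFB5 was lost in the DESeq2 Wald test, where 0 members were called at 12 h. It was also lost when any 1 library of the 12 h groups or of EMD37 at 24 h was left out. Without 1 or the other vehicle library of 24 h, more members were called lower, as were more of all tested genes.

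Whether the effect of EMD37 differed between the times was tested directly as the treatment by time interaction, the effect at 24 h minus that at 12 h. NDUFA1, NDUFA12, NDUFS3, NDUFV3, COX8A and ATP5PD were lower in this contrast and COX7B was higher, 7 of 77 members in all. Each of these calls was lost in 3 to 10 of 13 alternatives. In this contrast 15.9% of all tested genes were called, 7.94% lower and 7.96% higher. NDUFA1 (chromosome X, 119871487 to 119876662), a small membrane-arm subunit of complex I, had the largest of the negative differences, -0.75 (standard error 0.19, adjusted p = 0.0115). At 12 h it had 343 and 408 normalized counts with EMD37, against 311 and 252 with vehicle. At 24 h it had 337 and 316 with EMD37, against 436 and 369 with vehicle. NDUFA1 was thus above vehicle at 12 h and below it at 24 h, at 0.43 (adjusted p = 0.0559) and -0.32 (adjusted p = 0.0599), and neither effect passed the test on its own. Its exon bases overlap those of other genes over 44.5% of their length. COX8A had a difference of -0.53 (standard error 0.13, adjusted p = 0.0120). It had 1568 and 1852 with EMD37 at 12 h, against 1616 and 1602 with vehicle. For the other 18 members called lower at 24 h and not called in the interaction, the 2 times were not shown to differ. Without library B of EMD37 at 12 h or at 24 h each member called lower in this contrast lost its call. Without vehicle library B of 24 h, members were called lower more often than all tested genes.

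Time in culture without the compound was seen in the vehicle groups, which also serve as the controls of the treatment comparisons. NDUFA1 was higher at 24 h than at 12 h in vehicle by 0.53 (standard error 0.13, adjusted p = 0.0295) and UQCRC1, a core protein of complex III, by 0.29 (standard error 0.08, adjusted p = 0.0487), with 1014 and 976 normalized counts at 24 h against 817 and 821 at 12 h. The call of UQCRC1 was lost in all 14 alternatives, at adjusted p of 0.0557 to 0.270 in edgeR or DESeq2, and that of NDUFA1 in 5, among them each omission of a 12 h library. No other member was called, where 5.99% of all tested genes were, 2.75% higher and 3.25% lower. With vehicle library A of 24 h left out, the median over the members was -0.02, against 0.08 with all libraries. In that fit more members were called, at about the share of all tested genes. Without vehicle library B of 24 h, members were called higher more often than all tested genes.

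The promoters of members that moved at 24 h are shown because the known regulators of the family read short motifs. RefSeq windows from 250 bases before to 50 after the start (GRCh38.p14) were matched for 68 of the 86 members, and the 250 bases before the start are printed. RefSeq starts can differ from those of GENCODE 29. The fallen members with the smallest p in complexes II to IV and ATP synthase are given with the risen COX7B, 5′ to 3′, with matches to the searched motifs in capitals.
SDHA, chr5:218070-218319, plus strand: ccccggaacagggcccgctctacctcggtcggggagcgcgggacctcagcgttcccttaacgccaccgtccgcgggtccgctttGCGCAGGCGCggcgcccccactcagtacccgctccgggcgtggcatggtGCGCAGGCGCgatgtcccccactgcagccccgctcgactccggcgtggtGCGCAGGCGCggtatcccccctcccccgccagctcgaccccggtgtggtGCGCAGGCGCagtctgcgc
UQCRQ, chr5:132866392-132866641, plus strand: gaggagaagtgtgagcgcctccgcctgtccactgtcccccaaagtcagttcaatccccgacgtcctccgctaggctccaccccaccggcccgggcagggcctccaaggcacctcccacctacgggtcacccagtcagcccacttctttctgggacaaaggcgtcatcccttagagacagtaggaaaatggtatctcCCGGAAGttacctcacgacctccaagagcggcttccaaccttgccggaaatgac
COX8A, chr11:63974370-63974619, plus strand: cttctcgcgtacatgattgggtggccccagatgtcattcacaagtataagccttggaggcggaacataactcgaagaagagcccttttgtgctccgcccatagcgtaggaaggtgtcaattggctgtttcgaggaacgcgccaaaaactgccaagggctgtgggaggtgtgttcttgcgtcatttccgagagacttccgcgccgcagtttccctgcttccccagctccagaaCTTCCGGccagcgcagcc
ATP5MC1, chr17:48892537-48892786, plus strand: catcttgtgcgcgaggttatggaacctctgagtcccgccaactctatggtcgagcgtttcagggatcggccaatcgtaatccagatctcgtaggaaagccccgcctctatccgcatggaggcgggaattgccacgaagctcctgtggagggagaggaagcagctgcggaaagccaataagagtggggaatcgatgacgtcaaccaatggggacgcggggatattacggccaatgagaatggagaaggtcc
COX7B, chrX:77899218-77899467, plus strand: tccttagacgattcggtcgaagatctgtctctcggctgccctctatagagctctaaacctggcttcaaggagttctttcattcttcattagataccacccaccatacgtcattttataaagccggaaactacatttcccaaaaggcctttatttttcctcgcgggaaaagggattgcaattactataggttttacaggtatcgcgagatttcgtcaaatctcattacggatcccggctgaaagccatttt

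Matches were sought on both strands. The NRF1 motif, GCGC followed by any base and TGCGC, was in 17 of the 68 matched windows of members and in 6.28% of the 27305 RefSeq windows of the same length. The ETS motif CCGGAAG was in 20 of the 68, 29.4%, and 10.7% of all windows. The YY1 motif AANATGGCG was in 23.5% of members and 3.37% of all windows. The composite motif of ATF4 and CHOP, TGATGNAA, was in 1.47% of members and 3.67% of all windows. The capitals in SDHA are 4 NRF1 matches, which begin 166, 117, 68 and 19 bases before the start. Those in UQCRQ and COX8A are ETS matches, 54 and 18 bases before the start. The windows of ATP5MC1 and COX7B hold none of these letters. Not printed are NDUFV3, the fallen member with the smallest p in complex I, and the risen COX7A2L and NDUFS1. In the 250 bases before the start, NDUFV3 and COX7A2L hold no match. NDUFS1 holds an ETS match there, 157 bases before the start. Of the 20 fallen members with a window, 7 had an NRF1 match, 5 an ETS match, 4 a YY1 match and 0 a composite match. Of the 41 tested members with a window that were not called, 9, 14, 11 and 1 had them, in the same order of motifs. Of the 3 risen members, 0, 1, 1 and 0 had them. A match is a description of letters and not a binding site.

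Genes that assemble the complexes were called lower more than higher at 24 h. Of 54 tested assembly factors 16 fell (29.6%) and 2 rose (3.70%), with a median of -0.09. Over all tested genes 21.1% were called lower, 19.6% higher and 40.7% in either direction. COA1, a factor for complexes I and IV, had 792 and 829 normalized counts with EMD37, against 1584 and 1307 with vehicle, a fall of 0.86 on the log2 scale (standard error 0.09, adjusted p = 1.07e-06), and it also fell at 12 h, by 0.39 (adjusted p = 0.00839), a call lost without EMD37 library B or vehicle library A of 12 h. NDUFAF8 and NUBPL of complex I, the second of which delivers iron-sulfur clusters, fell by 0.76 and 0.65. SDHAF3, which helps mature the iron-sulfur subunit of complex II, fell by 0.87. COA3 and COX18, which act on the mitochondrially encoded subunits of complex IV, fell by 0.60 each. TTC19 of complex III and COA7 of complex IV rose by 0.43 each. At 12 h, COX19, a copper-handling factor of complex IV, was the only one of the 54 that rose, by 0.45 (adjusted p = 0.0460). That is 1.85% of them, against 5.27% of all tested genes. SCO2 was not analysed here.

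Of 7 tested subunits and partners outside the symbol rule, 3 fell at 24 h (42.9%) and none rose. Over all tested genes 21.1% were called lower and 19.6% higher. CYC1, cytochrome c1 of complex III, fell by 0.39, ATP5IF1, the inhibitor of ATP hydrolysis by ATP synthase, by 0.33 and STMP1, a small peptide of the inner membrane, by 0.42. The call of CYC1 was lost in 3 of 14 alternatives and that of ATP5IF1 in 4. NDUFA4L2, an isoform of NDUFA4, had 12.8 and 10.1 normalized counts with EMD37 at 24 h, against 6.64 and 3.22 with vehicle, and was not called. Of 18 tested genes of the tricarboxylic acid cycle and pyruvate entry, 7 fell (38.9%) and none rose, where 40.7% of all tested genes were called in either direction and 21.1% lower. SUCLA2 and SUCLG2, subunits of succinyl-CoA ligase, fell by 0.36 and 0.33, PDHA1, of pyruvate dehydrogenase, by 0.28 and MDH2, malate dehydrogenase, by 0.30. IDH2 fell by 1.18 on few reads, with 22.5 and 20.2 with EMD37 against 38.0 and 58.0 with vehicle.

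Among regulators of mitochondrial biogenesis, 6 of 16 tested rose at 24 h (37.5%) and none fell, where 40.7% of all tested genes were called in either direction and 19.6% higher. PPARGC1A had 145 and 178 normalized counts with EMD37, against 35.1 and 24.7 with vehicle, a rise of 2.40 (standard error 0.23, adjusted p = 4.72e-07). At 12 h it had 32.4 and 25.3 with EMD37, against 37.6 and 30.3 with vehicle, and was not called. TFB2M, a mitochondrial transcription factor, rose by 0.85 and TWNK, the mitochondrial DNA helicase, by 0.76. PPRC1, a relative of PGC-1α, rose by 0.38, YY1 by 0.37 and GABPA by 0.25. NRF1 was at 0.10 and TFAM, which packages mitochondrial DNA, at 0.10, and neither was called. At 12 h no regulator rose, and MTERF1 and PPARGC1B fell by 0.42 and 0.65 (12.5% of the 16, against 3.43% of all tested genes called lower). Of 13 tested chaperones and proteases of mitochondria, 5 rose (38.5%) and 2 fell (15.4%) at 24 h, against 19.6% and 21.1% of all genes. LONP1, the matrix protease, had 712 and 627 with EMD37, against 258 and 384 with vehicle, a rise of 1.04 (standard error 0.15, adjusted p = 4.69e-05). HSPA9, the matrix Hsp70, rose by 0.81, HSPD1 and HSPE1, the chaperonin and its partner, by 0.67 and 0.59, and YME1L1, an inner-membrane protease, by 0.41. DNAJA3 fell by 0.42 and SPG7 by 0.24. At 12 h LONP1, HSPD1 and HSPA9 rose by 0.59, 0.38 and 0.32 (23.1% of the 13, against 5.27% of all tested genes called higher). The calls of LONP1 and HSPA9 at 12 h were lost when any 1 library of the 12 h groups was left out, and that of HSPD1 for 3 of those 4.

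**Figure D5:**
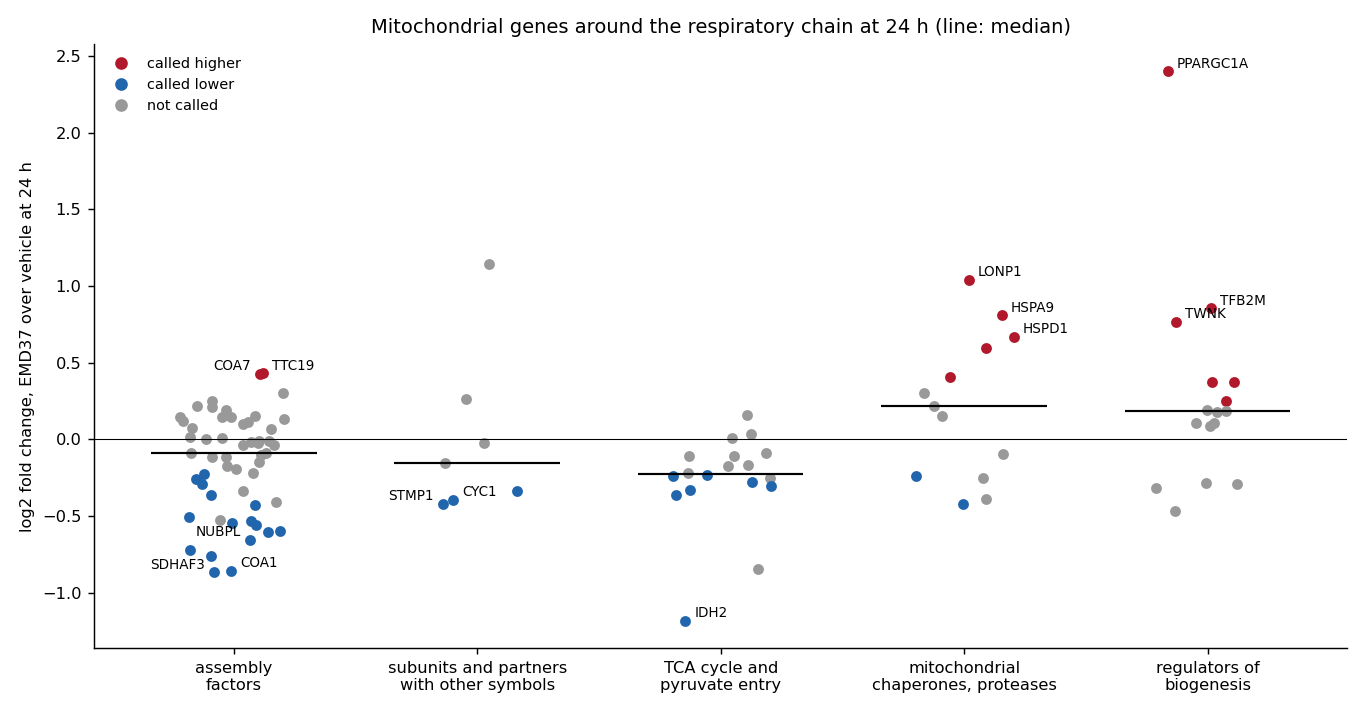
Log2 fold change of EMD37 over vehicle at 24 h for 5 lists of mitochondrial genes outside the members, with 1 point per tested gene coloured by its call and the list median as a line. PPARGC1A is the highest point at 2.40 and IDH2 the lowest at -1.18; all 6 called regulators lie above 0 and all 7 called genes of the cycle below it.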

How the data were processed

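RNA was measured by bulk RNA-seq in 8 libraries, 2 in each of 4 groups taken from the labels. Per the labels' protocols, 1 µg of total RNA entered a TruSeq V2 kit. Per the submitters' processing notes, the tools were FastQC, STAR and DESeq2 on hg38; versions, roles, the counting program and its strand setting are not given in the sources used here. Reads of overlapping or antisense genes therefore cannot be told apart.

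The authors deposited a count per gene as whole numbers, and these counts were tested. In the second deposited table (signal) every count of a library is divided by its own size factor. The count table as used here ended part-way and held 36715 genes. For 6912 further IDs the reads were recovered from the normalized table, where 55296 of 55296 values were whole within 0.01; the recovered reads, 8.26% to 11.7% of each library, were added in an alternative, with 17863 genes tested, 3443 higher and 3304 lower at 24 h.

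Genes were named with GENCODE 29. edgeR 4.0.16 in R 4.3.3 used TMM factors, a filter at a minimum count of 10, 1 mean per group over all 8 libraries and the quasi-likelihood test with Benjamini-Hochberg adjustment. The script was tested on simulated data. Alternatives were DESeq2 1.42.0, its size factors, recovered reads, no filter, 4 libraries only, a replicate block and leaving out each library. Members and gene lists were chosen with earlier results of these data known. Values are named for the members with the smallest p in each complex and contrast, all calls, untested members, and up to 4 genes per related list; a few others (NDUFV1, NDUFV2, NDUFA3, NDUFA11, UQCRC2, ATP5F1B, NRF1, TFAM, PPRC1, GABPA, MDH2, SPG7, DNAJA3, YME1L1, COX19, MTERF1 and PPARGC1B) were named after their values were seen. The values of 1 member are not reported here; it is kept in the counts.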

Additional observations from a re-analysis of the deposited data

Results flagged for a closer look

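The effect of EMD37 at 24 h was called different from that at 12 h, by edgeR's interaction test over all genes, for 17 of the genes named. Most named genes were picked by small p-values in these same data, so their number is a description only. In this contrast 15.9% of all tested genes were called. The call of PPARGC1A held in all 13 alternatives. Each other call was lost in 1 (TFB2M) to 10 (NDUFA12 and NDUFS3) of them. The values below are the effect at 24 h minus that at 12 h on the log2 scale. Among complex I members they were -0.75 for NDUFA1, -0.62 for NDUFA12, -0.53 for NDUFS3 and -0.45 for NDUFV3. In complex IV they were -0.53 for COX8A and 1.34 for COX7B, and in ATP synthase -0.67 for ATP5PD. Among assembly factors they were -0.47 for COA1, -0.53 for NUBPL, 0.42 for TTC19 and 0.42 for COA7. The mitochondrial chaperones HSPA9 and HSPE1 had 0.49 and 0.46. Among regulators the differences were 2.60 for PPARGC1A, 0.69 for TFB2M, 0.53 for TWNK and 0.41 for YY1.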

How the results depend on the processing

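No called gene changed direction, and the median of the members at 24 h stayed below 0 in each of the 14 alternatives run. Counts of called members moved more. At 12 h, 2 members were called higher with only the 4 libraries compared, and the count of lower members was 3 with no filter, 9 with only the 4 libraries, 0 in the DESeq2 Wald test and 0 with the replicate block. At 24 h the DESeq2 Wald test called 15 lower. In the interaction that test called 0 higher and 3 lower, and the block 0 higher. For vehicle time, 1 member was called higher with recovered reads, with DESeq2 size factors, in the DESeq2 Wald test and with the block, 0 with only the 4 libraries, and 1 lower with no filter. Leaving out each library in turn gave 0 to 2 higher and 0 to 8 lower at 12 h, 1 to 4 higher and 9 to 31 lower at 24 h, 0 to 6 higher and 0 to 14 lower in the interaction, and 0 to 11 higher and 0 to 4 lower for vehicle time. The same omissions put the median of the members for vehicle time as low as -0.025, that of complex II at 24 h between -0.39 and -0.17, and that of complex IV at 24 h between -0.12 (without EMD37 library B) and 0.25 (without vehicle library A). Among single genes, 2280 values kept their side of the threshold, 221 lost their call and 54 gained one. A value that was called in neither fit counts among the 2280 even where its sign changed. Same-letter deviations correlated between -0.16 and 0.16. With 2 libraries per group this cannot decide whether the letters A and B pair the libraries. With the block 21 members fell at 24 h. Where a count changed, the cause was not tested. Depth limits members under 100 normalized counts.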
